A study of Mus musculus with 16 samples.

Results

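The comparison described here was between CT26 cells that carried hairpins against both Sep15 and TR1 (shTR1/shSep15, 4 arrays) and CT26 cells that carried the TR1 hairpin alone (shTR1, 4 arrays), 8 of the 16 arrays in the series. It addressed what a Sep15 hairpin adds in cells that already carry a TR1 hairpin. Arrays were assigned by their labels, and all 45037 probe sets that do not belong to the manufacturer's controls were compared. CT26 is a colon carcinoma line of the BALB/c mouse, and every line was stably transfected with the pU6-m3 vector and selected with hygromycin B. The shTR1/shSep15 line received both hairpin constructs, the shTR1 line the TR1 construct, the shSep15 line the Sep15 construct and the control line the vector without a hairpin. The 4 arrays of a line came from different mRNA samples. The study's methods speak of several clones, but no source used here says which clone or culture an array came from, so p-values measure the spread between these samples, which may be technical.

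Sep15 is a small selenoprotein of the endoplasmic reticulum, now named Selenof, that binds UDP-glucose:glycoprotein glucosyltransferase, the sensor that returns misfolded glycoproteins to the calnexin cycle. TR1, encoded by Txnrd1, is the cytosolic selenoprotein that keeps thioredoxin reduced with electrons from NADPH, and thioredoxin in turn serves ribonucleotide reductase, peroxiredoxins and many transcription factors. Interferon-stimulated genes, which recur in the results, are the antiviral and antigen-presentation genes that interferons switch on through Stat transcription factors.

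The 2 hairpins are shown because they are what separates the lines. The labels give the target of each as follows, 5′ to 3′. The TR1 target was present in the shTR1/shSep15 and shTR1 lines, and the Sep15 target in the shTR1/shSep15 and shSep15 lines.
Sep15: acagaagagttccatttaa
TR1: atcgctctgacaagcttattag
The Sep15 target is 19 bases long with 31.6% G and C, and Selenof lies at chr3:144570427-144597677 in GRCm38.p6. The TR1 target is 22 bases long with 40.9% G and C, and Txnrd1 lies at chr10:82833951-82897724.

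Selenof fell in shTR1/shSep15 cells, and Txnrd1 was low in both lines except on 2 of the shTR1 arrays. All signals below are log2 values after Robust Multi-Array Analysis (RMA), so that a difference of 1 is a 2-fold change, and values of a line are given in the order of replicates 1 to 4. At its brightest probe set Selenof read 7.86, 7.34, 7.77 and 7.66 in shTR1/shSep15 cells, against 11.57, 11.73, 11.71 and 12.36 in shTR1 cells. The difference was -4.19 (SE 0.19, n = 4 arrays each, an 18.2-fold lower signal, limma with Benjamini-Hochberg adjusted p = 3.87e-08), and the arrays of the 2 lines did not overlap (exact two-sided permutation p = 0.0286, the smallest that 4 against 4 arrays can give). The other Selenof probe set was dim, with means of 3.57 in shTR1/shSep15 cells and 3.53 in shTR1 cells.

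Txnrd1 at its brightest probe set read 7.59, 7.18, 7.73 and 7.91 in shTR1/shSep15 cells, against 7.84, 10.57, 7.89 and 9.71 in shTR1 cells. Replicates 2 and 4 of shTR1 lay at the level of the lines without a TR1 hairpin, whose means were 9.92 in shSep15 cells and 9.96 in control cells, so these arrays went against their label at this probe set. The difference between the lines was -1.40 (SE 0.49, unadjusted p = 0.0128, limma adjusted p = 0.321, exact two-sided permutation p = 0.0857), and without shTR1 replicates 2 and 4 it was -0.26 (adjusted p = 0.961). The other Txnrd1 probe sets were dimmer and differed by -0.24 and -0.17, or by 0.12 and -0.03 without these 2 arrays. Values are also given without these 2 arrays where leaving them out moved a gene's difference by over 1.5 times or brought a new call. Calls lost without them are given for some genes and otherwise for the called probe sets as a group. They are called shTR1 replicates 2 and 4 throughout, as labelled.

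**Figure D1:**
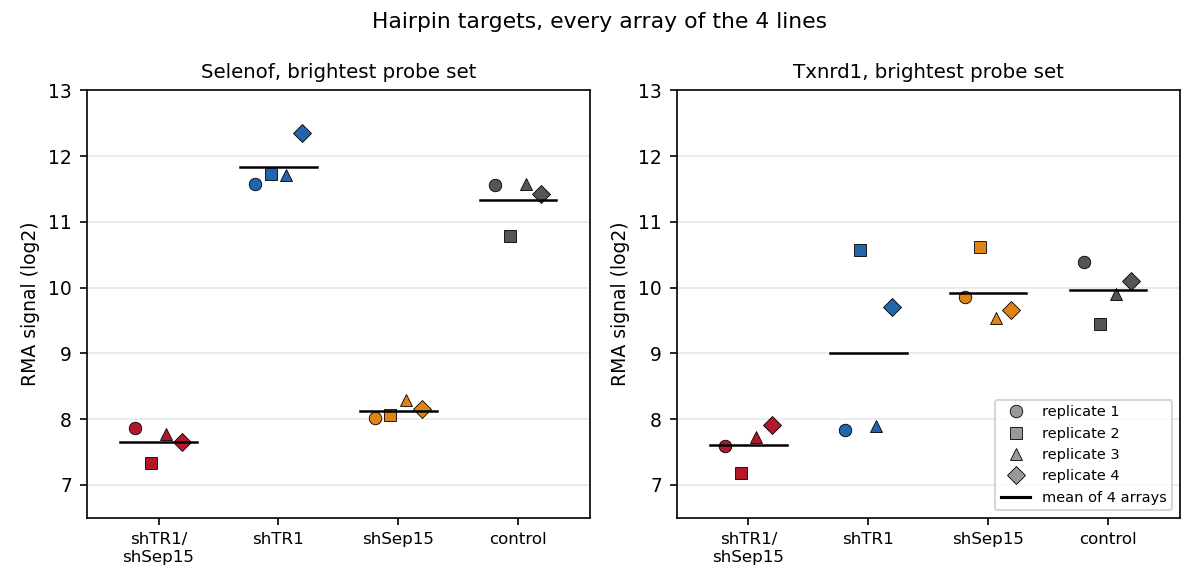
RMA signal (log2) of Selenof (left) and Txnrd1 (right) at the brightest probe set of each gene, for every array of the 4 lines. Marker shapes are replicates and bars are means of 4 arrays. All 4 shTR1/shSep15 arrays lie below 8 for both genes, and for Txnrd1 shTR1 replicates 2 and 4 lie at 10.57 and 9.71, with shSep15 and control.

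As a whole the shTR1 arrays were less alike than the shTR1/shSep15 arrays. The SD of a probe set over 4 arrays had a median of 0.167 in shTR1/shSep15 cells and 0.200 in shTR1 cells, and 5.48% of probe sets in shTR1/shSep15 cells, against 14.7% in shTR1 cells, spanned at least 2-fold within the line. The median SD and that share were 0.172 and 6.56% in shSep15 cells and 0.251 and 23.5% in control cells, so the control arrays were less alike than the shTR1 arrays. Within shTR1, replicate 1 stood farthest from the others, with 2267 to 3781 probe sets at least 2-fold apart from each of them, against 1142 to 1619 among replicates 2, 3 and 4. Within shTR1/shSep15, replicates 1 and 3 were nearly the same, with 27 probe sets 2-fold apart, and replicate 2 differed most, with 1150 to 1549. Control replicate 2 also stood apart, and it enters the shared estimate of the spread and every value given for the control line. Of 24 colon epithelial markers, 16 lay under 5 on all 8 arrays. Among them was Cdh1 (E-cadherin), at 2.38 to 2.77 in shTR1/shSep15 cells and 2.38 to 2.47 in shTR1 cells. Krt18 (keratin 18), of the same list, was brighter, at 6.25 to 6.58 in shTR1/shSep15 cells and 4.81 to 8.90 in shTR1 cells. Of 22 mesenchymal markers, 4 lay under 5 on all 8 arrays. Vim (vimentin), of that list, lay at 12.96 to 13.14 in shTR1/shSep15 cells and 12.28 to 13.06 in shTR1 cells.

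Against shTR1 cells, 33 of 45037 probe sets changed in shTR1/shSep15 cells, or 0.0733% of those tested. Of these, 9 rose (0.0200%) and 24 fell (0.0533%). They carry 26 genes, and 4 of them have no single gene name. In all 33 the 4 arrays of one line lay beyond the 4 of the other, which probe sets chosen for a low p mostly do. Over all genes the lines did not overlap for 4.09% upward and 5.32% downward. Among the 33, 21 differed by at least 2-fold, 5 of them upward and 16 downward. At an unadjusted p under 0.05 there were 4690 probe sets, of which 1813 were higher in shTR1/shSep15 cells. The number of calls depended on single arrays. It was 11, 8, 9 and 5 without shTR1/shSep15 replicates 1, 2, 3 and 4, 250 without shTR1 replicate 1, 11 without shTR1 replicate 4, 18 without shSep15 replicate 4 and 176 without control replicate 2. Without shTR1 replicates 2 and 4 it was 12 (0.0266%), 7 of them among the 33. All 33 kept their direction without these 2 arrays, at an unadjusted p under 0.05 each. Since the 33 were chosen on data that include the arrays kept, this is no separate evidence for them.

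The probe sets that were called with each of the 16 arrays left out in turn numbered 5, and 4 of them are Arhgef5, Phrf1, Cpn1 and Selenof. Arhgef5, a guanine nucleotide exchange factor, had the largest difference of all those called. It read 9.37, 9.43, 9.57 and 9.84 in shTR1/shSep15 cells, against 4.45, 4.51, 4.75 and 4.36 in shTR1 cells. The line means were 4.65 in shSep15 cells and 9.22 in control cells, so that Arhgef5 was high in the lines with both hairpins or with none and low in each line with a single hairpin. It rose by 5.04 (SE 0.17, adjusted p = 8.83e-10), and without shTR1 replicates 2 and 4 the difference was 4.95 (adjusted p = 6.74e-07).

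Phrf1, a RING-finger ubiquitin ligase with a PHD domain, followed the same order at a smaller scale. It read 9.12, 8.99, 9.18 and 9.23 in shTR1/shSep15 cells, against 8.16, 7.66, 7.79 and 7.69 in shTR1 cells, with means of 7.78 in shSep15 cells and 9.69 in control cells. The rise was 1.31 (SE 0.11, adjusted p = 0.000176). Cpn1, the catalytic subunit of carboxypeptidase N, which trims basic residues from the ends of circulating peptides, did not follow it. Cpn1 read 6.37, 6.18, 6.48 and 5.79 in shTR1/shSep15 cells, against 4.62, 4.79, 4.04 and 4.18 in shTR1 cells, and its means were 4.30 in shSep15 cells and 4.37 in control cells. It thus stood above the 3 other lines in shTR1/shSep15 cells alone, where the rise over shTR1 was 1.80 (SE 0.22, adjusted p = 0.00853) and the difference from control was also past the threshold (adjusted p = 0.00409). The call for Cpn1 was the closest of these to the threshold, with adjusted p = 0.0456 at most when an array was left out. The last of the 5 was a probe set to which the array annotation gives no single gene. It fell by 0.97 (adjusted p = 0.00231).

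The other genes that rose did so by less and lost the call when some arrays were left out. Tsnax is the partner of translin in an endoribonuclease that acts in RNA silencing. It read 6.07, 6.08, 6.27 and 6.20 in shTR1/shSep15 cells, against 5.0, 4.87, 4.63 and 4.93 in shTR1 cells (difference 1.30, adjusted p = 0.0165, up to 0.0563 without shTR1/shSep15 replicate 2, 3 or 4, each of which ended the call). Syne3, or nesprin-3, a protein of the outer nuclear membrane, read 6.25, 5.96, 6.14 and 5.68 in shTR1/shSep15 cells, against 4.47, 5.37, 4.57 and 4.70 in shTR1 cells (difference 1.23, adjusted p = 0.0438). Replicate 2 was the highest of the shTR1 arrays for Syne3 and came nearest to the shTR1/shSep15 arrays.

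Ube2j2, a ubiquitin-conjugating enzyme anchored in the endoplasmic reticulum membrane that serves degradation of misfolded proteins, read 9.33, 9.49, 9.27 and 9.38 in shTR1/shSep15 cells, against 8.58, 8.93, 8.08 and 8.57 in shTR1 cells. The rise of 0.83 (adjusted p = 0.0425) was 1.04 without shTR1 replicates 2 and 4 (adjusted p = 0.0276). Ube2j2, Syne3, Selenof, Arhgef5, Phrf1, Cpn1 and the probe set without a single gene name are the 7 that were called in both settings. Every other called probe set, named above or below, lost its call without shTR1 replicates 2 and 4 (limma adjusted p of 0.097 to 0.397). Kcmf1, another ubiquitin ligase, rose by 0.70 (adjusted p = 0.0425), and Kalrn, a further guanine nucleotide exchange factor, rose by 0.65 from a dim signal (adjusted p = 0.039). In both the 4 arrays of a line lay within 0.5 of each other. Both have brighter probe sets than the one called. The brightest of Kcmf1 differed by 0.18 (adjusted p = 0.675) and the next by 0.93 (adjusted p = 0.162), and the brightest of Kalrn differed by 0.44 (adjusted p = 0.292).

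**Figure D2:**
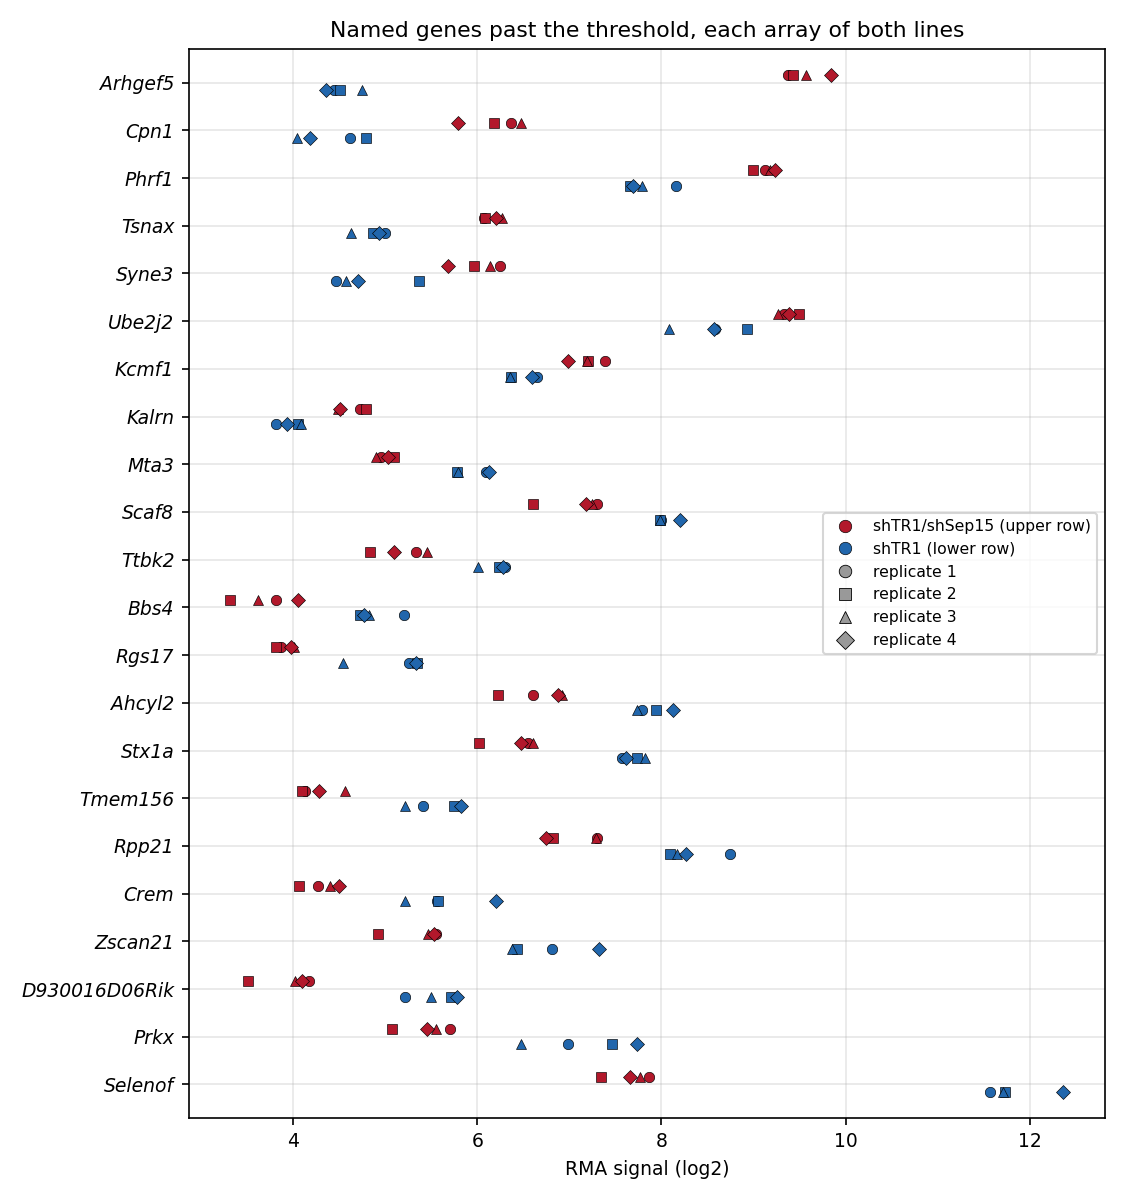
RMA signal (log2) on each array for the 22 named genes past the threshold, ordered by the difference between the lines, with the largest rise at the top and the largest fall at the bottom. In each row the shTR1/shSep15 arrays are drawn above the shTR1 arrays and marker shapes are replicates. The lines do not overlap for any of the 22 genes, which was a condition for naming them. Only Arhgef5 and Selenof differ by more than 2.

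Among the genes that fell, Selenof aside, differences ran from -0.68 to -1.72. The largest was that of Prkx, a catalytic subunit of cAMP-dependent protein kinase encoded on the X chromosome. Prkx read 5.70, 5.07, 5.55 and 5.45 in shTR1/shSep15 cells, against 6.98, 7.46, 6.47 and 7.73 in shTR1 cells, with means of 7.82 in shSep15 cells and 7.47 in control cells. It was therefore low in shTR1/shSep15 cells alone (difference from shTR1 -1.72, SE 0.27, adjusted p = 0.0324, and adjusted p = 0.0125 for the difference from control). The call against shTR1 was kept in 7 of the 16 fits that left out an array and not without shTR1 replicates 2 and 4 (-1.29, adjusted p = 0.297).

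Stx1a, the syntaxin that drives fusion of secretory vesicles at the plasma membrane, fell at both probe sets that report it. At the brighter one it read 6.55, 6.02, 6.61 and 6.48 in shTR1/shSep15 cells, against 7.57, 7.73, 7.82 and 7.62 in shTR1 cells (difference -1.27, SE 0.17, adjusted p = 0.0157), and at the other the difference was -0.79 (adjusted p = 0.0177). Of the fits that left out 1 array, only that without shTR1/shSep15 replicate 4 ended the call of the brighter one (adjusted p = 0.0504). Without shTR1 replicates 2 and 4 its difference was -1.28 and it was not called (adjusted p = 0.136). Zscan21, a zinc-finger transcription factor with a SCAN domain, also fell at more than 1 probe set. The brightest read 5.55, 4.92, 5.46 and 5.53 in shTR1/shSep15 cells, against 6.81, 6.43, 6.38 and 7.32 in shTR1 cells (difference -1.37, adjusted p = 0.0292). D930016D06Rik, a gene without an established role, fell by 1.60 and 1.37 at its 2 probe sets (adjusted p = 0.0165 each).

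Rpp21, a protein subunit of ribonuclease P, which trims the leader of transfer RNA precursors, read 7.30, 6.82, 7.29 and 6.75 in shTR1/shSep15 cells, against 8.74, 8.09, 8.17 and 8.27 in shTR1 cells. The means were 8.63 in shSep15 cells and 6.96 in control cells, so that Rpp21 was high in each line with a single hairpin, the reverse of Arhgef5 (difference -1.28, SE 0.18, adjusted p = 0.0177). Ahcyl2, a relative of S-adenosylhomocysteine hydrolase that binds the inositol trisphosphate receptor, had the same order. Ahcyl2 read 6.60, 6.22, 6.92 and 6.88 in shTR1/shSep15 cells, against 7.79, 7.94, 7.73 and 8.13 in shTR1 cells, with means of 7.88 in shSep15 cells and 6.58 in control cells (difference -1.24, adjusted p = 0.0256). Mta3, a subunit of the NuRD chromatin complex, read 4.95, 5.10, 4.90 and 5.03 in shTR1/shSep15 cells, against 6.09, 5.78, 5.79 and 6.13 in shTR1 cells (difference -0.95, adjusted p = 0.0419). The brighter Mta3 probe sets did not move with it, with differences of 0.01 (adjusted p = 0.984) and 0.02 (adjusted p = 0.977).

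Several of the remaining genes act in signalling, at cilia or on RNA. Crem, a transcription factor that answers cyclic AMP, read 4.27, 4.06, 4.40 and 4.50 in shTR1/shSep15 cells, against 5.56, 5.57, 5.22 and 6.20 in shTR1 cells (difference -1.33, adjusted p = 0.0372). Rgs17, a brake on G-protein signalling, read 3.87, 3.81, 4.01 and 3.98 in shTR1/shSep15 cells, against 5.26, 5.35, 4.54 and 5.33 in shTR1 cells (difference -1.20, adjusted p = 0.0192), with shTR1 replicate 3 well below the rest of its line. Bbs4, a subunit of the BBSome that carries membrane proteins into cilia, read 3.81, 3.32, 3.62 and 4.05 in shTR1/shSep15 cells, against 5.20, 4.73, 4.83 and 4.77 in shTR1 cells (difference -1.18, adjusted p = 0.0389). At these probe sets the 3 genes were dim in shTR1/shSep15 cells. Brighter Bbs4 probe sets differed by -1.17 (limma adjusted p = 0.244) and -1.37 (limma adjusted p = 0.0851) and were not called.

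Ttbk2, a kinase that starts the assembly of cilia, read 5.33, 4.84, 5.45 and 5.10 in shTR1/shSep15 cells, against 6.30, 6.24, 6.01 and 6.28 in shTR1 cells (difference -1.03, adjusted p = 0.0177). Scaf8, which binds the tail of RNA polymerase II, read 7.30, 6.61, 7.25 and 7.18 in shTR1/shSep15 cells, against 8.0, 7.98, 7.98 and 8.20 in shTR1 cells (difference -0.96, adjusted p = 0.0292). Its brightest probe set differed by 0.34 in the other direction (adjusted p = 0.758). Tmem156, a membrane protein of little known function, fell by 1.28 (adjusted p = 0.0451). The smaller falls were those of Atat1, the acetyltransferase of alpha-tubulin (-0.88, adjusted p = 0.039), Larp4b, an RNA-binding protein (-0.81, adjusted p = 0.0197), 4933407K13Rik (-0.72, adjusted p = 0.0177) and Mon1b, a component of the exchange factor that activates Rab7 on endosomes (-0.68, adjusted p = 0.039). Other probe sets of Atat1, Larp4b and Mon1b were not called. Those of Atat1 were dimmer and differed by 0.05, -0.44 and -0.00. The brighter one of Larp4b differed by -0.82 (adjusted p = 0.184). For Mon1b, one of similar brightness differed by -0.12 (adjusted p = 0.814) and a dimmer one by 0.15 (adjusted p = 0.764). None of the genes in this paragraph kept its call without shTR1 replicates 2 and 4 (adjusted p of 0.208 to 0.397), and none kept it with every array left out in turn (called in 4 to 13 of 16 such fits).

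The same Sep15 hairpin was also compared in cells without the TR1 hairpin, shSep15 against control, in which 885 probe sets (1.97%) changed, 619 upward and 266 downward. That count was 561, 437 and 437 without shSep15 replicates 1, 3 and 4 and 503 without control replicate 4. The arrays of that comparison are not those of the comparison above. Of the 33 probe sets called between shTR1/shSep15 and shTR1, 32 had the opposite sign in shSep15 against control, where 62.2% of all 45037 probe sets did. Of the 33, 11 were past the threshold there, 10 in the opposite direction and 1, Selenof, in the same. For Selenof the difference was -3.20 (SE 0.19, adjusted p = 1.11e-06), for Arhgef5 -4.57 (adjusted p = 3.56e-09), for Phrf1 -1.91 (adjusted p = 1.11e-06), for Tsnax -1.06 (adjusted p = 0.00633), for Rpp21 1.67 (adjusted p = 0.000275), for Ahcyl2 1.30 (adjusted p = 0.00245) and for Mta3 1.15 (adjusted p = 0.00168). The control mean lay nearer to the shTR1/shSep15 mean for 22 of the 33 and nearer to the shTR1 mean for 11.

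**Figure D3:**
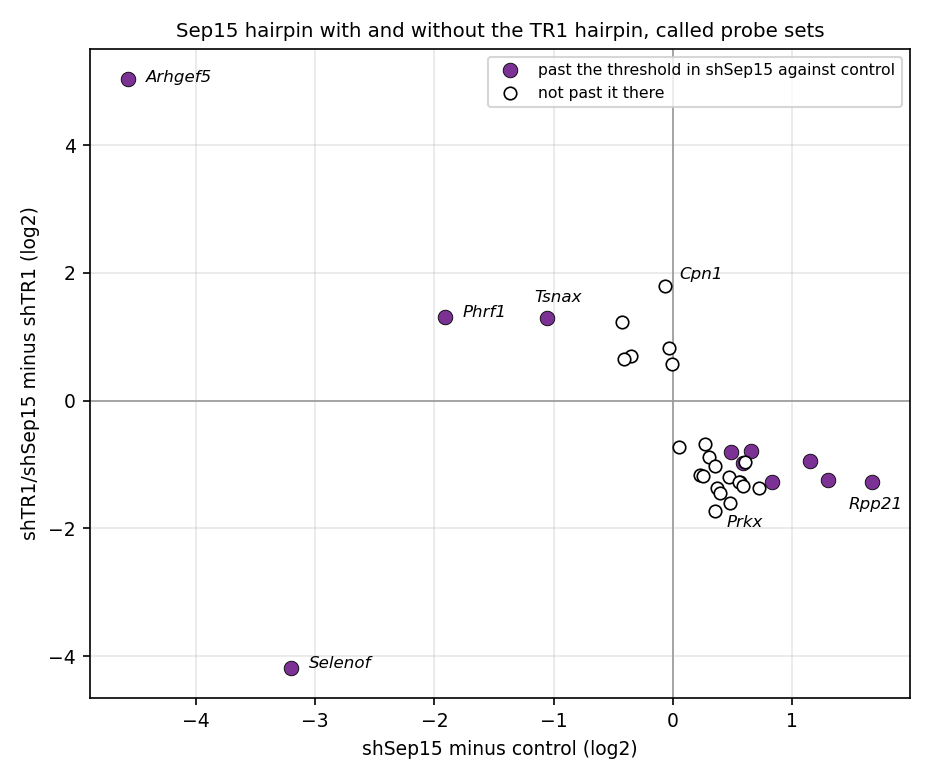
Difference between shTR1/shSep15 and shTR1 (vertical, log2) against the difference between shSep15 and control (horizontal, log2) for the 33 called probe sets. Filled points are the 11 that were also past the threshold in shSep15 against control. Selenof is the only point with the same sign on both axes, and the other 32 lie in the opposite quadrants.

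The difference between these differences, the non-additivity of the hairpins, was past the threshold for 1282 probe sets (2.85%), 331 above 0 and 951 below. Since it contains the difference between shTR1/shSep15 and shTR1, it adds no separate evidence for the 33. For Selenof it was -0.98 (adjusted p = 0.0719), and for Txnrd1 -1.36 (adjusted p = 0.357). There were 519 such probe sets without shTR1 replicates 2 and 4. With 1 array left out there were 791, 734 and 833 without shTR1/shSep15 replicates 1, 2 and 4, 823 without shTR1 replicate 4, 656 and 660 without shSep15 replicates 3 and 4, and 2340 and 745 without control replicates 2 and 4.

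Interferon-stimulated genes were lower in shTR1/shSep15 cells than in shTR1 cells as a list, without any single gene past the threshold when all arrays were weighted equally. Of 44 measured, all 44 had lower means, by a median of -1.42 where the median over all 18193 genes was 0.05. None was past an adjusted p of 0.05 in limma or in the unmoderated test of the methods, whereas limma with array weights called 6. With array weights 512 of all 18193 genes were called. In the unweighted fit 20 were lower at an unadjusted p under 0.05 (6.61% of all genes were) and 19 had lines that did not overlap (5.32% of all genes in that direction). The mean of the 44 genes on each array was 5.96, 5.72, 6.04 and 5.98 in shTR1/shSep15 cells, against 6.39, 7.90, 6.27 and 9.06 in shTR1 cells. All the shTR1 arrays were above all the shTR1/shSep15 arrays, but replicates 1 and 3 by little and replicates 2 and 4 by much. In bulk RNA of this kind, fewer cells that express a gene and less of its RNA per cell cannot be told apart. Without replicate 4 alone the median difference was -0.94, and without replicates 2 and 4 it was -0.26. In that setting 34 genes were lower and 10 higher, and 5 were lower at an unadjusted p under 0.05 (4.10% of all genes were).

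Usp18, which strips Isg15 from its target proteins and restrains the interferon receptor, had the widest range of the 44 over the shTR1 arrays. It read 3.77, 3.68, 3.58 and 3.54 in shTR1/shSep15 cells, against 4.68, 10.47, 6.40 and 11.73 in shTR1 cells. Replicates 2 and 4 were again the highest of the shTR1 arrays, and all 4 lay above every shTR1/shSep15 array (difference -4.68, SE 1.22, unadjusted p = 0.00167, adjusted p = 0.178). Without shTR1 replicate 1 the adjusted p was 0.0276 (difference -5.89), and without replicates 2 and 4 it was 0.747 (difference -1.90). Trim25, a ubiquitin ligase that activates the RNA sensor RIG-I, had the lowest p of the list and read 8.57, 7.99, 8.58 and 8.44 in shTR1/shSep15 cells, against 9.22, 10.03, 9.01 and 10.40 in shTR1 cells (difference -1.27, unadjusted p = 0.000476, adjusted p = 0.12, and -0.72 without replicates 2 and 4). Eif2ak2, the kinase PKR that halts translation on double-stranded RNA, read 7.33, 6.44, 6.93 and 6.44 in shTR1/shSep15 cells, against 7.56, 8.49, 8.0 and 10.05 in shTR1 cells (difference -1.74, adjusted p = 0.193, and -0.99 without replicates 2 and 4). Ifi35, an interferon-induced partner of Nmi, differed by -1.77 (adjusted p = 0.192), and by -0.83 without replicates 2 and 4. For Trim25, Eif2ak2 and Ifi35 the lines did not overlap, with or without replicates 2 and 4.

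The interferon-inducible GTPases, which attack the vacuoles of intracellular parasites, were read for 11 genes, and all 11 had lower means in shTR1/shSep15 cells, by a median of -2.35. None was past the threshold in limma, with or without array weights, or in the unmoderated test of the methods, and 3 were lower at an unadjusted p under 0.05 (6.61% of all genes were). The mean over the 11 was 4.43, 4.13, 4.50 and 4.46 in shTR1/shSep15 cells, against 4.54, 6.03, 4.96 and 8.91 in shTR1 cells. Here replicate 4 was far above the others, and replicate 1 lay just above the shTR1/shSep15 arrays. Gbp2b, a guanylate-binding protein, read 4.13, 4.08, 4.35 and 4.13 in shTR1/shSep15 cells, against 4.66, 5.74, 5.18 and 11.02 in shTR1 cells (difference -2.48, adjusted p = 0.502, and -0.75 without replicates 2 and 4). Gbp2 read 4.27, 3.91, 4.05 and 3.96 in shTR1/shSep15 cells, against 4.79, 6.12, 5.20 and 10.35 in shTR1 cells (difference -2.57, adjusted p = 0.436, and -0.95 without them). Irgm2, which regulates the loading of the other GTPases, read 3.71, 4.13, 3.64 and 3.91 in shTR1/shSep15 cells, against 4.72, 7.10, 4.36 and 8.59 in shTR1 cells (difference -2.35, adjusted p = 0.3, and -0.69 without them). Without replicate 4 alone the list's median was -1.01, and without replicates 2 and 4 it was -0.36, with 8 genes lower, 3 higher and none at an unadjusted p under 0.05.

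Class I antigen presentation, the route by which cells display peptides to CD8+ T cells, had 15 genes measured and all 15 with lower means, by a median of -0.54. None passed the threshold in limma or in the unmoderated test of the methods, whereas limma with array weights called 3 (and 512 of all 18193 genes). In the unweighted fit 6 were lower at an unadjusted p under 0.05 (6.61% of all genes were). H2-D1, a class I heavy chain, read 10.82, 10.84, 11.03 and 11.07 in shTR1/shSep15 cells, against 11.66, 11.78, 11.53 and 12.12 in shTR1 cells (difference -0.83, SE 0.17, unadjusted p = 0.000169, adjusted p = 0.0869). B2m, its light chain, read 12.41, 12.40, 12.50 and 12.57 in shTR1/shSep15 cells, against 12.94, 12.96, 12.68 and 13.20 in shTR1 cells (difference -0.47, adjusted p = 0.259). Tapbp, tapasin, which loads peptide, read 7.35, 7.66, 7.54 and 7.88 in shTR1/shSep15 cells, against 8.64, 8.98, 8.30 and 10.08 in shTR1 cells (difference -1.39, adjusted p = 0.204, and -0.86 without replicates 2 and 4). In these 3 the lines did not overlap, and the 4 shTR1 arrays were closer together than for the GTPases. Of the 15 genes, 4 had lines that did not overlap (5.32% of all genes in that direction). Psmb8, also of the list, read 4.46, 4.99, 4.62 and 4.58 in shTR1/shSep15 cells, against 5.11, 6.71, 4.87 and 7.54 in shTR1 cells. Its lines overlapped (difference -1.39, limma adjusted p = 0.246, and -0.33 without replicates 2 and 4). The list's median was -0.34 without replicate 4 alone. Without replicates 2 and 4 it was -0.33, and 1 gene was lower at an unadjusted p under 0.05 (4.10% of all genes were). Class I genes of the mouse are near-identical copies of each other, and their probe sets may read more than 1 of them.

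In the comparison of shSep15 with control the same lists had medians of 1.54, 3.14 and 0.48 (interferon-stimulated genes, GTPases and class I genes), higher in shSep15 cells. The mean of the 44 interferon-stimulated genes was 6.69, 9.0, 8.67 and 8.77 in shSep15 cells and 6.20, 7.59, 6.37 and 6.04 in control cells. Arrays with high list means were thus shSep15 replicates 2, 3 and 4, shTR1 replicates 2 and 4 and, less so, control replicate 2, and no shTR1/shSep15 array was among them. In the shTR1 line, replicates 2 and 4 had both the higher list means and the higher Txnrd1 signals (10.57 and 9.71). The control arrays read Txnrd1 at 9.45 to 10.39. Their list means were 6.04 to 6.37 on replicates 1, 3 and 4, and 7.59 on replicate 2. The shSep15 arrays read Txnrd1 at 9.54 to 10.62. Their list means were 6.69 on replicate 1 and 8.67 to 9.0 on replicates 2, 3 and 4. The part of Txnrd1 in the list's level was not tested. Ifng, the gene of interferon-gamma itself, lay at 2.58 to 2.71 in shTR1/shSep15 cells and 2.48 to 2.83 in shTR1 cells. Of 27 leukocyte markers 15 lay under 5 on all 8 arrays. At an unadjusted p under 0.05 there were 2 higher and 1 lower (4.73% and 6.61% of all genes were). Ptprc (CD45), the marker of all leukocytes, lay at 2.74 to 3.09 in shTR1/shSep15 cells and 2.56 to 2.90 in shTR1 cells. Cd68, of the same list, differed by -1.31 (limma adjusted p = 0.472), and by -0.60 without shTR1 replicates 2 and 4.

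**Figure D4:**
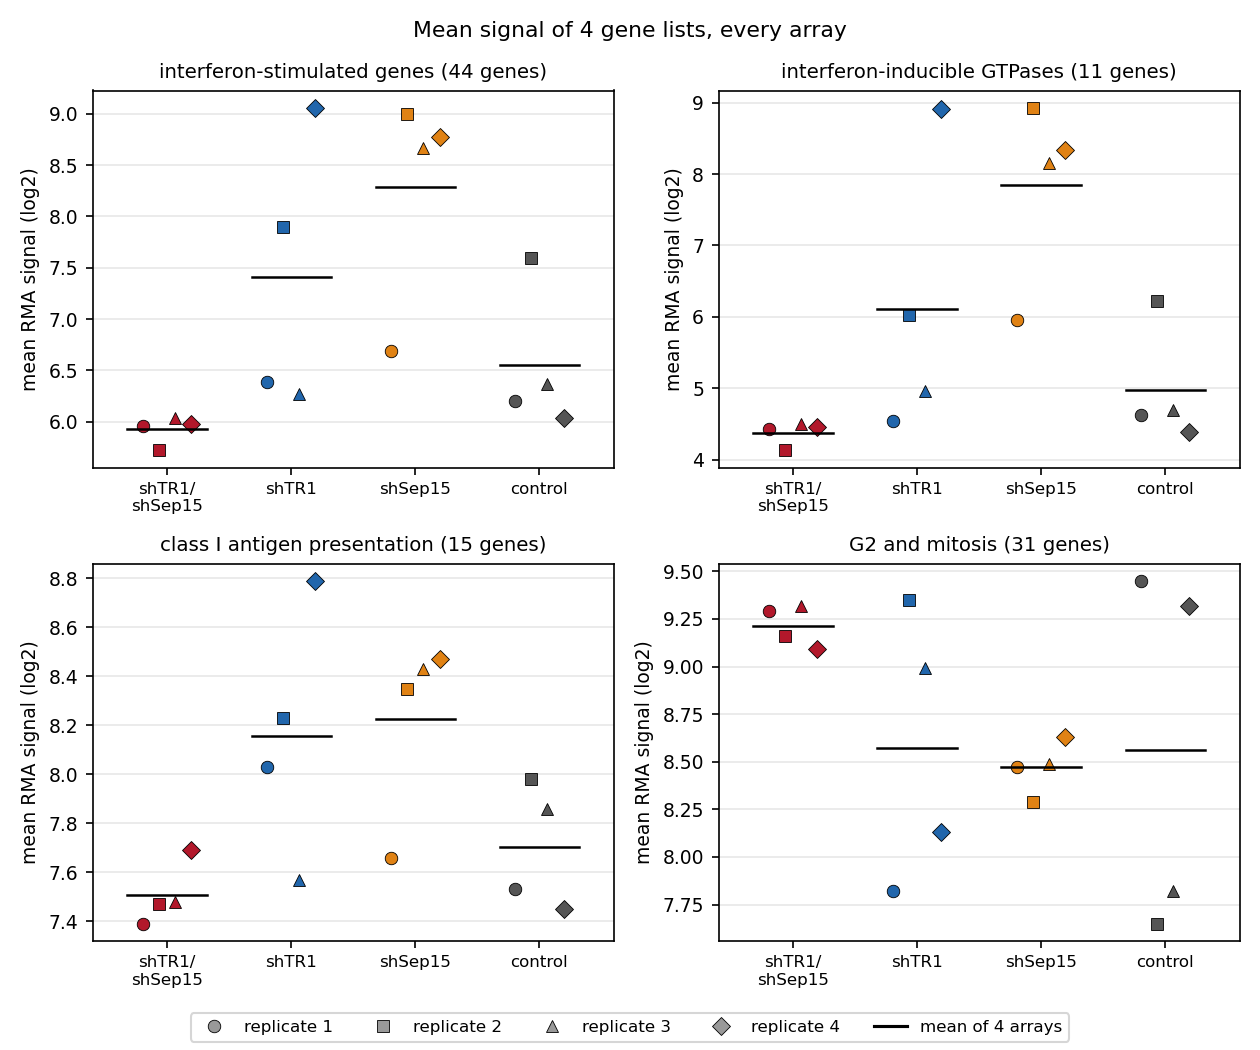
Mean RMA signal (log2) of 4 gene lists on every array of the 4 lines. Marker shapes are replicates and bars are means of 4 arrays. The shTR1/shSep15 arrays lie together in each panel, while the shTR1 arrays spread, with replicates 2 and 4 high for interferon-stimulated genes (7.90 and 9.06) and replicates 1 and 4 low for G2 and mitosis genes (7.82 and 8.13).

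Genes of G2 and mitosis were higher in shTR1/shSep15 cells. All 31 measured had higher means there, by a median of 0.61, and 10874 of all 18193 genes also had higher means. None of the list was past the threshold in limma or in the unmoderated test of the methods. Limma with array weights called 1 of the list, Cdc25c, and 512 of all 18193 genes. At an unadjusted p under 0.05, 7 were higher (4.73% of all genes were), and the lines did not overlap for 8 (4.09% of all genes in that direction). The list mean was 9.29, 9.16, 9.32 and 9.09 in shTR1/shSep15 cells, against 7.82, 9.35, 8.99 and 8.13 in shTR1 cells. Replicates 1 and 4 of shTR1 were low, whereas replicate 2 was above every shTR1/shSep15 array. Cdc25c, the phosphatase that starts mitosis, read 7.68, 7.95, 7.52 and 7.67 in shTR1/shSep15 cells, against 6.71, 6.99, 7.08 and 6.65 in shTR1 cells (difference 0.84, unadjusted p = 0.00131, adjusted p = 0.163). Cdk1, its substrate kinase, read 11.22, 11.21, 11.22 and 11.02 in shTR1/shSep15 cells, against 10.36, 10.95, 10.69 and 10.42 in shTR1 cells (difference 0.57, adjusted p = 0.331). Without replicates 2 and 4 the list's median was 0.78, and 8 genes were higher at an unadjusted p under 0.05 (3.02% of all genes were). The control arrays were as uneven, with list means of 9.45, 7.65, 7.82 and 9.32.

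Genes of DNA replication and S phase had a median of 0.28, with 26 of 32 higher (10874 of all 18193 genes were) and 2 at an unadjusted p under 0.05 (4.73% of all genes were). The median was 0.05 without shTR1 replicate 1, 0.43 without replicate 2 and 0.42 without replicates 2 and 4. Rrm2, a subunit of ribonucleotide reductase, which thioredoxin keeps active, read 11.19, 11.20, 11.12 and 10.91 in shTR1/shSep15 cells, against 9.23, 10.48, 10.65 and 9.73 in shTR1 cells (difference 1.08, unadjusted p = 0.0218, adjusted p = 0.379). Cholesterol synthesis had 18 of 20 genes with higher means, by a median of 0.37, and 5 at an unadjusted p under 0.05. Fdft1, squalene synthase, read 8.11, 8.42, 8.11 and 8.52 in shTR1/shSep15 cells, against 6.87, 8.29, 7.21 and 7.41 in shTR1 cells, where replicate 2 alone overlapped (difference 0.85, adjusted p = 0.186). Fdft1 was past the threshold without replicate 2 (1.13, adjusted p = 0.0215) and without replicates 2 and 4 (1.25, adjusted p = 0.0276). Mvk, mevalonate kinase, read 7.86, 8.21, 7.80 and 8.08 in shTR1/shSep15 cells, against 6.96, 7.55, 7.20 and 7.29 in shTR1 cells (difference 0.74, adjusted p = 0.249). Without replicates 2 and 4 the cholesterol list had a median of 0.58, and 7 genes were higher at an unadjusted p under 0.05 (3.02% of all genes were). Hypoxia and glycolysis had 7 of 28 genes higher and none lower at that level, by a median of 0.25, and 3 without replicates 2 and 4.

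Matricellular and matrix proteins had 36 of 44 genes with higher means, by a median of 0.23, and 9 higher and none lower at an unadjusted p under 0.05. Of all 18193 genes, 10874 had higher means, and 4.73% were higher and 6.61% lower at that level. Tnc, tenascin-C, a matrix glycoprotein of wounds and tumours, read 6.94, 6.62, 6.94 and 7.46 in shTR1/shSep15 cells, against 6.78, 3.42, 3.77 and 3.56 in shTR1 cells. Replicate 1 of shTR1 lay within the shTR1/shSep15 range, and the other shTR1 arrays lay at the level of the other lines, whose means were 3.38 in shSep15 cells and 3.83 in control cells. The difference was 2.61 (SE 0.56, unadjusted p = 0.000307, adjusted p = 0.101), and without shTR1 replicate 1 it was 3.41 and past the threshold (adjusted p = 1.67e-05). Without shTR1 replicates 2 and 4 it was 1.72 (adjusted p = 0.605). Col1a2, a chain of type I collagen, read 11.87, 11.87, 11.92 and 12.25 in shTR1/shSep15 cells, against 10.92, 11.60, 10.07 and 10.81 in shTR1 cells (difference 1.13, adjusted p = 0.266). Mmp14, the membrane-bound collagenase, read 9.33, 9.11, 9.15 and 9.07 in shTR1/shSep15 cells, against 8.66, 8.13, 8.32 and 8.28 in shTR1 cells (difference 0.82, adjusted p = 0.193). Without replicates 2 and 4 the matrix list had a median of 0.15 and 5 genes higher at an unadjusted p under 0.05 (3.02% of all genes were).

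Among 23 selenoproteins Selenof was the only one past the threshold, and the median difference was 0.01, or -0.02 without shTR1 replicates 2 and 4. Sephs2, the selenophosphate synthetase that makes the selenium donor for all selenoproteins, read 8.92, 9.32, 8.84 and 8.99 in shTR1/shSep15 cells, against 7.90, 8.09, 7.43 and 7.62 in shTR1 cells. The lines did not overlap, but the difference of 1.26 missed the threshold (SE 0.28, unadjusted p = 0.000447, adjusted p = 0.118). Gpx1, the cytosolic glutathione peroxidase, read 11.28, 11.23, 11.27 and 11.17 in shTR1/shSep15 cells, against 12.00, 11.31, 11.47 and 11.70 in shTR1 cells (difference -0.38, adjusted p = 0.385). Selenos, a selenoprotein of the endoplasmic reticulum that takes part in the export of misfolded proteins, differed by -0.54 without overlap of the lines (unadjusted p = 0.0156, adjusted p = 0.339). Of 11 genes of the selenocysteine machinery 1 was higher and 3 were lower at an unadjusted p under 0.05 (4.73% and 6.61% of all genes were). The lower ones were Scly, Secisbp2l and Secisbp2.

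Thioredoxins, glutaredoxins and peroxide defence had 4 of 23 genes higher and none lower at an unadjusted p under 0.05, with a median of 0.08. At that level 4.73% of all genes were higher and 6.61% lower, and 10874 of all 18193 genes had higher means. Prdx3, the mitochondrial peroxiredoxin, read 10.22, 10.12, 10.19 and 10.21 in shTR1/shSep15 cells, against 8.71, 9.79, 9.79 and 9.43 in shTR1 cells (difference 0.75, adjusted p = 0.323). Nrf2 targets and glutathione synthesis had 22 of 27 genes higher by a median of 0.25, of which 2 at an unadjusted p under 0.05. Gsr, glutathione reductase, read 8.95, 9.39, 9.04 and 9.08 in shTR1/shSep15 cells, against 6.98, 8.82, 8.73 and 7.69 in shTR1 cells (difference 1.06, adjusted p = 0.517). Endoplasmic reticulum folding had 3 of 29 genes higher and none lower at that level, with a median of -0.02 that was 0.05 after a further quantile normalization and -0.16 without shTR1 replicates 2 and 4. Canx, the calnexin of the cycle in which Sep15 takes part, read 10.75, 10.41, 10.88 and 10.75 in shTR1/shSep15 cells, against 10.16, 10.40, 10.56 and 10.43 in shTR1 cells (difference 0.31, unadjusted p = 0.0156, adjusted p = 0.339).

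Wnt ligands, receptors and the beta-catenin complex had 3 genes higher and 6 lower of 45 at an unadjusted p under 0.05, and Wnt target genes 1 higher of 23. At that level 4.73% of all genes were higher and 6.61% lower. Ctnnbip1, an inhibitor that keeps beta-catenin from its transcription partners, read 8.17, 8.43, 8.01 and 7.89 in shTR1/shSep15 cells, against 7.37, 7.50, 7.02 and 7.50 in shTR1 cells (difference 0.78, unadjusted p = 0.000609, adjusted p = 0.129). Fzd5, a Wnt receptor, read 5.26, 4.87, 5.42 and 5.38 in shTR1/shSep15 cells, against 5.85, 6.36, 5.72 and 6.72 in shTR1 cells (difference -0.93, adjusted p = 0.148, and -0.56 without replicates 2 and 4). Apc, the scaffold of the complex that degrades beta-catenin, read 7.91, 6.86, 8.07 and 7.71 in shTR1/shSep15 cells, against 7.98, 8.48, 8.76 and 8.65 in shTR1 cells (difference -0.83, adjusted p = 0.259). DNA repair had 6 of 41 genes lower and 1 higher at that level. Polb, the polymerase of base excision repair, read 8.63, 7.96, 8.67 and 8.65 in shTR1/shSep15 cells, against 9.71, 8.95, 9.55 and 9.62 in shTR1 cells (difference -0.98, unadjusted p = 0.00073, adjusted p = 0.135). Trp53 targets had 3 of 20 genes lower and none higher, and caspases with other apoptosis regulators had 3 of 28 lower and none higher. Diablo, which releases caspases from their inhibitors, read 7.82, 7.88, 7.92 and 7.79 in shTR1/shSep15 cells, against 8.21, 8.47, 8.60 and 8.41 in shTR1 cells (difference -0.57, SE 0.11, unadjusted p = 0.000121, adjusted p = 0.0851).

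The genes that the study singled out from these arrays were measured for 26 of 33 names. None was past the threshold in limma or in the unmoderated test of the methods, whereas limma with array weights called 4 (and 512 of all 18193 genes). In the unweighted fit, at an unadjusted p under 0.05 there were 4 higher and 10 lower genes, a count that is no independent evidence because the genes were chosen on these samples. Afp, alpha-fetoprotein, a protein of fetal liver, read 10.07, 10.25, 10.12 and 10.28 in shTR1/shSep15 cells, against 11.13, 6.93, 6.75 and 8.57 in shTR1 cells. Replicate 1 of shTR1 was the highest of the 8 arrays and the other shTR1 arrays were the lowest (difference 1.84, adjusted p = 0.341, and 2.77 with adjusted p = 0.00522 without replicate 1). Ccr1, a receptor of inflammatory chemokines, read 6.84, 6.16, 6.95 and 6.95 in shTR1/shSep15 cells, against 8.14, 8.38, 6.43 and 7.30 in shTR1 cells, with means of 4.11 in shSep15 cells and 4.39 in control cells (difference -0.84, adjusted p = 0.405, and -0.56 without replicates 2 and 4). Ccnb1ip1, a ubiquitin ligase that acts on cyclin B, read 4.84, 3.87, 4.78 and 4.23 in shTR1/shSep15 cells, against 4.74, 7.59, 4.83 and 6.84 in shTR1 cells, high again on replicates 2 and 4 (difference -1.57, adjusted p = 0.311, and -0.36 without them). Speg, a kinase of striated muscle, read 5.58, 5.0, 5.09 and 5.67 in shTR1/shSep15 cells, against 7.62, 5.91, 6.0 and 5.39 in shTR1 cells, with replicate 1 the highest (difference -0.90, adjusted p = 0.446). The Speg difference was -0.43 without shTR1 replicate 1 and -1.48 without replicates 2 and 4 (adjusted p = 0.481).

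The 4 shTR1 arrays differed from the shTR1/shSep15 mean in unlike ways. At least 2-fold above that mean were 689, 1283, 1332 and 1228 probe sets on replicates 1 to 4, and at least 2-fold below it were 1305, 213, 347 and 673. Replicate 1 was the only one with more below than above. It was also at least 2-fold below all the other shTR1 arrays at 856 probe sets, against 72, 78 and 50 for replicates 2, 3 and 4. The correlation of each shTR1 array with the mean of the other 3, over probe sets of one array type and so a description only, was 0.976, 0.988, 0.986 and 0.989.

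The genes with the widest range over the shTR1 arrays, among those with a mean of at least 6, showed which arrays set it, and since they were chosen for that range they are given without a test. Marcks, a membrane-bound organizer of actin, read 7.78, 7.28, 7.78 and 7.97 in shTR1/shSep15 cells, against 7.83, 2.97, 8.55 and 7.16 in shTR1 cells. Igf2r, the receptor that carries lysosomal enzymes and insulin-like growth factor 2, read 9.09, 8.62, 8.91 and 8.59 in shTR1/shSep15 cells, against 9.71, 4.43, 9.05 and 7.79 in shTR1 cells. Tmsb4x, thymosin beta-4, which binds actin monomers, read 12.04, 11.91, 12.09 and 11.96 in shTR1/shSep15 cells, against 13.29, 7.79, 11.72 and 11.48 in shTR1 cells. All 3 were low on replicate 2 and near the shTR1/shSep15 level or above it on replicates 1 and 3. Akr1c18, a steroid dehydrogenase, was high on replicate 1 alone, with 7.40, 8.18, 7.31 and 7.33 in shTR1/shSep15 cells, against 11.02, 7.0, 5.74 and 6.21 in shTR1 cells. Nefl, the light neurofilament chain, read 7.59, 6.98, 7.79 and 8.36 in shTR1/shSep15 cells, against 9.66, 4.34, 8.16 and 6.09 in shTR1 cells. Gbp3, Irf7, the factor that induces type I interferons, and Phf11d completed the list and were highest on replicate 4. Irf7 read 5.22, 5.53, 4.96 and 4.83 in shTR1/shSep15 cells, against 5.11, 8.55, 5.01 and 10.36 in shTR1 cells.

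**Figure D5:**
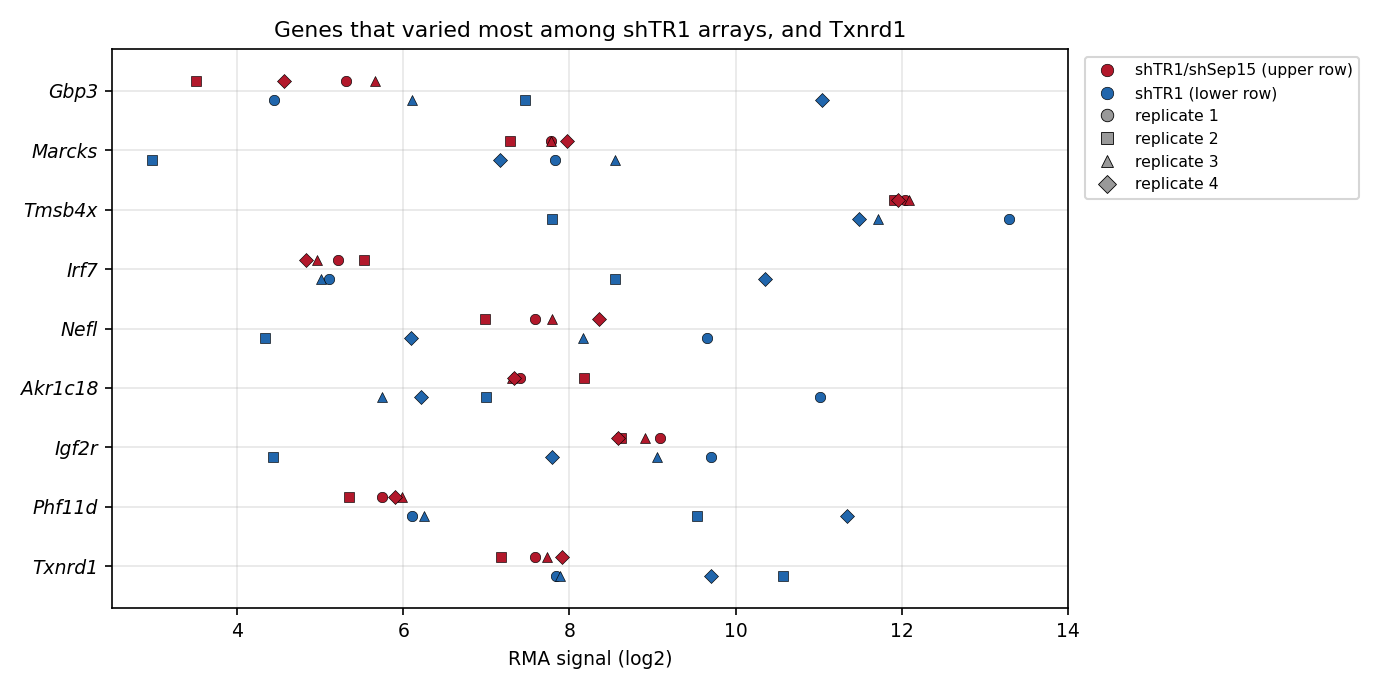
RMA signal (log2) on each array for the 8 genes with the widest range over the shTR1 arrays and for Txnrd1. The shTR1/shSep15 arrays are drawn above the shTR1 arrays in each row and marker shapes are replicates. Replicates 2 and 4 of shTR1 are the highest of the 8 arrays for Irf7, Phf11d and Txnrd1, replicate 2 is the lowest for Marcks, Tmsb4x, Nefl and Igf2r, and replicate 1 is the highest for Akr1c18.

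At an unadjusted p under 0.05, where 4.73% of all genes were higher and 6.61% lower, the other lists held the following. Chemokines, cytokines and their receptors had 2 higher and 2 lower of 37, matrix proteases 4 higher of 26, EGF family ligands and receptors 2 higher of 13, and YAP and TEAD targets 2 higher and 2 lower of 20. Immediate-early genes had 1 lower of 25, and mesenchymal markers 5 higher and 3 lower of 22. Without shTR1 replicates 2 and 4 the mesenchymal counts were 1 higher and none lower.

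By chromosome, counts at an unadjusted p under 0.05 stood beside 4.73% higher and 6.61% lower over all genes. Of 702 genes on chromosome 13, 10 were higher and 93 lower in shTR1/shSep15 cells, and of 834 on chromosome 17, 22 were higher and 103 lower. On chromosome 19, 52 of 609 were higher and 12 lower. The medians of these chromosomes were -0.01, 0.02 and 0.10, close to that of all genes.

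Lrrn4cl, chosen after its values were seen, was not called. Its difference was 3.04 (adjusted p = 0.0609), which is larger than that of any called gene other than Arhgef5 and Selenof.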

How the data were processed

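Total RNA of CT26 lines was hybridized to Affymetrix mouse genome arrays, 4 arrays per construct. The authors made the deposited log2 values with the Robust Multi-Array Analysis algorithm (RMA, per the labels and the methods), whose version is not given in the sources used here. They were used as deposited, with array medians of 4.45 to 4.58. The 64 manufacturer's control probe sets of 45101 were left out. Of the 45037 tested, 34945 carry 1 gene symbol in GEO's platform annotation, 932 several and 9160 none, and 34741 gene numbers were found in the RefSeq table (GRCm38.p6). A gene stands for its 1-gene probe set with the highest mean over 16 arrays (18193 genes).

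Each probe set was fitted over all 16 arrays with limma 3.58.1 in R 4.3.3. The model had 4 line means, as has the ANOVA of the methods, here called their unmoderated test. Variances were moderated (12 residual and 2.58 prior degrees of freedom) and p-values adjusted by Benjamini-Hochberg over all probe sets, with a threshold of 0.05. The fit was tested on simulated data. Single probe sets also had the exact permutation test. Array number limits the precision, since arrays have no depth. Figures were drawn with matplotlib 3.10.9.

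Named were up to 14 genes per direction among those called whose lines do not overlap. Also named were all probe sets of both targets, the genes the study examined, up to 4 members of a list by unadjusted p, and the 8 genes with the widest range in shTR1. The members, lists and the 2 arrays left out were chosen with earlier results of these data known. Lists are described by counts and medians. Alternatives were another moderation, filter, normalization, test, arrays left out and the replicate block. No label names a batch.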

Additional observations from a re-analysis of the deposited data

Results flagged for a closer look

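A sample far from the others of its line appeared in 14 of 212 groups examined, where chance gives about 1 in 20. Replicate 2 was the lowest shTR1/shSep15 array for Zscan21 (4.92), Igtp (5.28), Gbp6 (2.51), Ccr1 (6.16) and Polb (7.96), and the highest for Atat1 (4.63). Replicate 4 was the lowest shTR1/shSep15 array for Cdk1 (11.02) and 4933407K13Rik (3.17) and the highest for Col1a2 (12.25). Replicate 4 was the highest shTR1 array for Gbp2b (11.02, the others 4.66 to 5.74), Gbp6 (6.80, the others 2.86 to 3.33) and Scaf8 (8.20). Replicate 1 was the highest shTR1 array for Tnc (6.78, the others 3.42 to 3.77), and replicate 3 the lowest for Rgs17 (4.54).

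For 46 of the 77 probe sets examined, the effect of the Sep15 hairpin differed by whether the TR1 hairpin was present. This was limma's test of the difference itself at an adjusted p under 0.05, which 2.85% of all probe sets passed. Each of the 77 stood for a gene whose difference is given above or that the study examined. That difference is part of this test, and the study chose its genes on these samples, so the count is no independent evidence. Above 0 were Arhgef5 (9.60), Afp (7.95), Phrf1 (3.22), Tsnax (2.36), Cpn1 (1.86), Cdc25c (2.14), Sephs2 (1.91), Syne3 (1.67), Fdft1 (1.53), Mvk (1.46), Kalrn (1.06), Kcmf1 (1.05) and Ube2j2 (0.85). Below 0, interferon genes had the largest values, with Usp18 at -10.71, Gbp7 at -7.32, Gbp2 at -6.73, Irgm2 at -6.72, Igtp at -5.52, Eif2ak2 at -3.97, Ifi35 at -3.61, Trim25 at -2.97 and Nmi at -2.65. For each of these interferon genes shTR1 replicates 2 and 4 were the highest of the shTR1 arrays. Of the class I genes, Tapbp was at -2.36, H2-D1 at -1.35 and B2m at -0.85. Ccnb1ip1 was at -4.33, Casp6 at -1.52, Selenos at -1.25 and Diablo at -0.84. The called genes followed with Rpp21 at -2.95, Ahcyl2 at -2.54, Stx1a and Mta3 at -2.10, Zscan21 at -2.09, Prkx and D930016D06Rik at -2.08, Crem at -1.92, Tmem156 at -1.84, Rgs17 at -1.67, Scaf8 at -1.56, Bbs4 at -1.43, Ttbk2 at -1.37, Larp4b at -1.30, Atat1 at -1.17, Mon1b at -0.95 and 4933407K13Rik at -0.77.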

How the results depend on the processing

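The fall of Selenof was called in every setting run, with -4.28 to -4.01 when an array was left out. Txnrd1 was called in none, with -1.79 to -0.88 when an array was left out.

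The 33 calls between shTR1/shSep15 and shTR1 became 21 at 2-fold or more, 18 with each array centred on its median, 9 and 4335 in the methods' ANOVA with and without adjustment, 1084 with array weights and 12 without shTR1 replicates 2 and 4. Leaving out 1 array gave 5 to 250. The fit of only the 8 arrays of the 2 lines gave 24 calls, 10 of them among the 33. The replicate block gave 15 calls, 12 of them among the 33. No label says what the replicate numbers stand for. Deviations of same-numbered arrays of the 2 lines correlated at -0.34, -0.28, 0.40 and 0.01, too few values to tell whether the numbers pair the samples. Non-additivity calls (1282) became 744 and 6923 in the methods' ANOVA with and without adjustment, 4462 with array weights, 519 without shTR1 replicates 2 and 4, and 656 to 2340 with 1 array left out. The 885 calls of shSep15 against control became 500 at 2-fold or more, 556 and 5483 in the methods' ANOVA, 2616 with array weights, and 437 to 1176 with 1 array left out. The cause was not tested.

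Some uncalled differences changed sign. Without shTR1 replicates 2 and 4, Irf7 was at 0.08 and Irf9 at 0.07, against -2.12 and -1.16 with all arrays, and Casp6 was at 0.19 and Wnt10a at -0.32. Of the genes with the widest range in shTR1, Marcks (-0.49), Tmsb4x (-0.50), Igf2r (-0.58), Nefl (-1.23) and Akr1c18 (-0.83) also changed sign in that setting, and all 5 were above 0 with all arrays. Leaving out 1 array gave up to 0.03 for Casp6, -0.11 to 0.01 for Ifng, -0.07 to 0.20 for Nfe2l2 and -0.14 to 0.83 for Wnt10a. Limma with array weights called 19 otherwise uncalled genes named in the text, among them Diablo, H2-D1, Sephs2, Mmp14 and Trim25. In that fit 512 of all 18193 genes were called. Without control replicate 2, Diablo, H2-D1, Sephs2, Mmp14 and Mvk were called (adjusted p of 0.0183 to 0.0412), and Diablo without shTR1 replicate 1 (0.0258). Leaving out shSep15 and control arrays was chosen after seeing the data. List medians kept their sign after quantile normalization except for those of the selenocysteine machinery (0.03), endoplasmic reticulum folding (0.05) and amino acid stress (0.02), all near 0.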
